A study of Mus musculus with 74 samples.

Results

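The subject is the difference between 2 heterozygous effects in C57BL/6 mice, that of the Aire allele C442G and that of the Aire null allele. Genes had to be listed in the count tables of both lines, which held 16306 genes (C442G) and 15991 genes (null), 15583 of them in both, and 13221 of these passed a filter on low counts and were tested. Of the 74 libraries of the series 16 were used, 8 from each line. They were bulk MARS-seq libraries, which count tags at the 3' ends of transcripts, from sorted mTEChi of mice aged 4 to 7 weeks. mTEChi are the mature epithelial cells of the thymic medulla, marked by abundant MHC class II. The groups were 5 libraries of Aire +/C442G mice, 3 wild-type (+/+) libraries of the C442G line, 5 libraries of Aire +/- mice, and 3 wild-type libraries of the null line. A further library of the null line was titled wild type but carried the genotype label -/-, and it was left out. Single libraries are named by their titles, such as Aire_C442G_het_81 for +/C442G, Aire_C442G_wt_86 for a wild type of that line, Aire_het_433 for Aire +/- and Aire_wt_430 for a null-line wild type.

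AIRE is a nuclear protein that lets these cells transcribe genes of other organs, so that T cells reacting to those organs can be removed or diverted while they mature. It works as an assembly of many AIRE molecules at chromatin, so that a faulty copy can in principle interfere with the normal copy, whereas a null allele only lowers the supply. C442G is named for a cysteine replaced by glycine. In human AIRE that residue lies in the second PHD finger, a domain held in shape by zinc-bound cysteines. The labels do not state how the C442G allele was made, nor what is missing from the null allele. The comparison therefore asks in which genes a C442G copy beside a normal one moved expression more, or otherwise, than the null allele did beside a normal one.

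The libraries held 1425904 to 4189258 counts, and the most abundant gene, mostly the MHC class II gene H2-Ab1, took 1.52% to 2.68% of a library. CPM are counts per 1e+06 counts. For single genes they were scaled to library size times the TMM factor, which edgeR estimates per library. For summed lists they were scaled to library size alone. The TMM factors had medians of 0.923 in +/C442G, 0.988 in C442G-line wild type, 1.047 in Aire +/- and 1.059 in null-line wild type. Aire, the defining gene of these cells, was at 1861 CPM or more in each library. The 24 tested mature mTEC markers summed to 56850 to 83310 CPM in +/C442G, 53110 to 63350 in C442G-line wild type, 52760 to 59140 in Aire +/- and 50460 to 52740 in null-line wild type. The 17 thymocyte markers in both tables summed to medians of 243.8, 321.2, 296.1 and 373.7 CPM in the same 4 groups, with +/C442G at 226.5 to 269.5 and C442G-line wild type at 305 to 464.5, and Cd3e, Cd8a, Ptcra and Themis among them did not pass the filter on low counts. By Xist and Y-linked transcripts, 3 of 5 +/C442G, 1 of 3 C442G-line wild-type, 2 of 5 Aire +/- and 0 of 3 null-line wild-type libraries were male. The labels do not say that each library came from a separate mouse, so the p-values measure the spread between libraries. The 2 wild types also differed from each other: edgeR called 2213 genes between them (16.7% of those tested), 1284 higher (9.71%) and 929 lower (7.03%) in the C442G line. Line and count table cannot be told apart, and each effect below compares a heterozygote with wild types of the same line, so that a shift shared by both genotypes of a line cancels. Since the cells were measured in bulk, fewer cells of a type and less RNA per cell cannot be told apart.

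+/C442G mTEChi moved many genes, lowering organ genes and raising a set of mTEC genes, while Aire +/- mTEChi moved few. In the C442G line edgeR called 3503 genes between heterozygote and wild type (26.5% of those tested), 1713 higher and 1790 lower in +/C442G. In the null line it called 17 genes (0.129%), 13 higher and 4 lower in Aire +/-, beside 983 genes at an unadjusted p under 0.05 and 46 genes called by DESeq2. The difference of the effects, tested itself in the same fit, was called for 831 genes (6.29%). In 316 of them (2.39%) the C442G effect lay above the null effect, and in 515 (3.9%) it lay below. The differences of at least 2-fold above numbered 70 (0.529% of the tested genes), and those below made up 3.31% of the tested genes. Scaled by library size alone the split was 148 above and 700 below, with the median of all tested genes at -0.11 on the log2 scale. Leaving out Aire_wt_430 left 480 calls, Aire_wt_434 left 495, and Aire_C442G_wt_89 left 533.

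Of the 831 genes, 812 were also called in the C442G effect in the same direction, where 26.5% of all tested genes were called. The null effect was called for 6 of them, against 0.129% of all tested genes. The difference is built from both effects and the same libraries. These overlaps, and the null medians that follow, are therefore partly fixed by the choice of genes. The median log2 difference was -1.67 for the 515 genes and 0.78 for the 316 genes, with a median null effect of 0.079 and 0.089. The genes below were lowly expressed, with a median level of 15.2 CPM over the groups, and those above were at 86.4 CPM, against 21.6 CPM over all tested genes. A weaker shift in the same direction was nevertheless visible in Aire +/- cells. Of the 1790 genes lower in +/C442G, 66.1% had a null effect below 0, against 48.5% of all tested genes, with a median null effect of -0.12 beside a median C442G effect of -1.18. Of the 1713 genes higher in +/C442G, 80.9% had a null effect above 0, with medians of 0.15 and 0.64. Across the tested genes the 2 effects, which share no library, had a Pearson r of 0.273 and a Spearman rho of 0.312, as a description across genes that are not independent replicates.

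**Figure D1:**
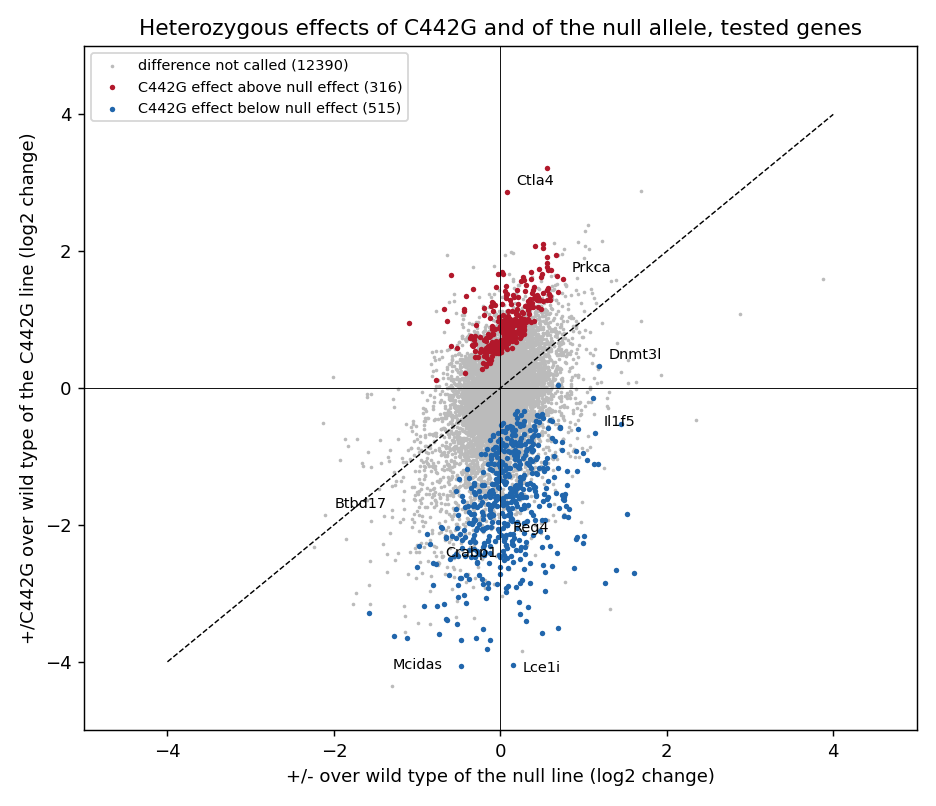
Log2 change of each tested gene in +/C442G over C442G-line wild type (vertical axis) against Aire +/- over null-line wild type (horizontal axis), coloured where the difference of the 2 effects was called; the dashed line marks equal effects. The coloured points spread along the vertical axis, with 515 below and 316 above the line, and 3 genes, none of them called, lie outside the axes.

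A gene can enter the difference because the heterozygotes of the 2 lines stand apart, because their wild types do, or both. Set against each other directly, +/C442G and Aire +/- differed in 4710 genes (35.6%), 2455 higher in +/C442G (18.6%) and 2255 lower (17.1%). Of the 515 genes below, 342 were also called lower in +/C442G than in Aire +/- directly, 69 of which had wild types called apart too. A further 155 had only their wild types called apart, and 18 neither. Of the 316 genes above, 268 were called higher in +/C442G than in Aire +/-, 12 of them with wild types apart, 42 had only their wild types apart, and 6 neither. In 164 of the 515 genes all 5 +/C442G libraries lay below the other 11 libraries, which held for 3.21% of all tested genes. In 175 of the 515 the 3 C442G-line wild types lay above all other libraries, against 3.15% of all tested genes. In 228 of the 316 genes the +/C442G libraries lay above the other 11, against 7.03% of all tested genes. In 61 of the 316 (19.3%) the 3 C442G-line wild types lay below all other libraries, against 1.67% of all tested genes. The results below are therefore given with the values of each library.

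A set of Aire-dependent genes chosen in other libraries of the series gives the same picture. It consists of 1401 genes that fell at least 2-fold in homozygotes of both the Y86C and the C313X line, of which 1287 were tested here. Their share of all counts was 2.56%, 2.48%, 2.46%, 2.38% and 2.38% in +/C442G, against 4.29%, 4.81% and 5.06% in C442G-line wild type, and 2.70%, 2.85%, 3.0%, 2.97% and 3.24% in Aire +/-, against 3.13%, 3.42% and 3.02% in null-line wild type. The +/C442G libraries were lowest of all, below each Aire +/- library, but the C442G-line wild types were also the highest of all, above each null-line wild type. Heterozygote minus wild type in the C442G line, minus the same in the null line, was -2.04 percentage points, with no test. Of the 1287 genes, 868 fell and 5 rose in the C442G effect (against 13.5% and 13% of all tested genes), 4 fell and 1 rose in the null effect (0.0303% and 0.0983%), and 345 lay below and 0 above in the difference. They made up 67% of the 515 genes below, against 9.73% of all tested genes. Their median difference was -1.01, with a median C442G effect of -1.17, a median null effect of -0.14 and a median of 0.60 between the wild types.

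The opposite set, 351 genes that rose at least 2-fold in both of those homozygotes, took 5.62%, 5.05%, 5.13%, 5.15% and 5.54% of counts in +/C442G, against 3.03%, 3.29% and 3.14% in C442G-line wild type, and 3.35%, 2.71%, 2.95%, 2.92% and 3.06% in Aire +/-, against 2.57%, 2.43% and 2.50% in null-line wild type. Here the +/C442G libraries stood above all others by a wide gap, and each Aire +/- library also lay above each of its wild types. But the C442G-line wild types too lay above each null-line wild type. Of the 347 tested, 296 rose in the C442G effect (85.3%, against 13% of all tested genes) and 7 in the null effect (2.02%, against 0.0983%). In the difference 115 lay above (33.1%, against 2.39%), and 0 fell in any of the 3. The median difference was 0.62, with 0.89 for C442G, 0.29 for the null allele and 0.27 between the wild types. Between these, 80 genes were higher in the C442G line (23.1%, against 9.71% of all tested genes) and 6 lower (1.73%, against 7.03%). Scaled by library size alone 68 lay above, with a median of 0.51.

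**Figure D2:**
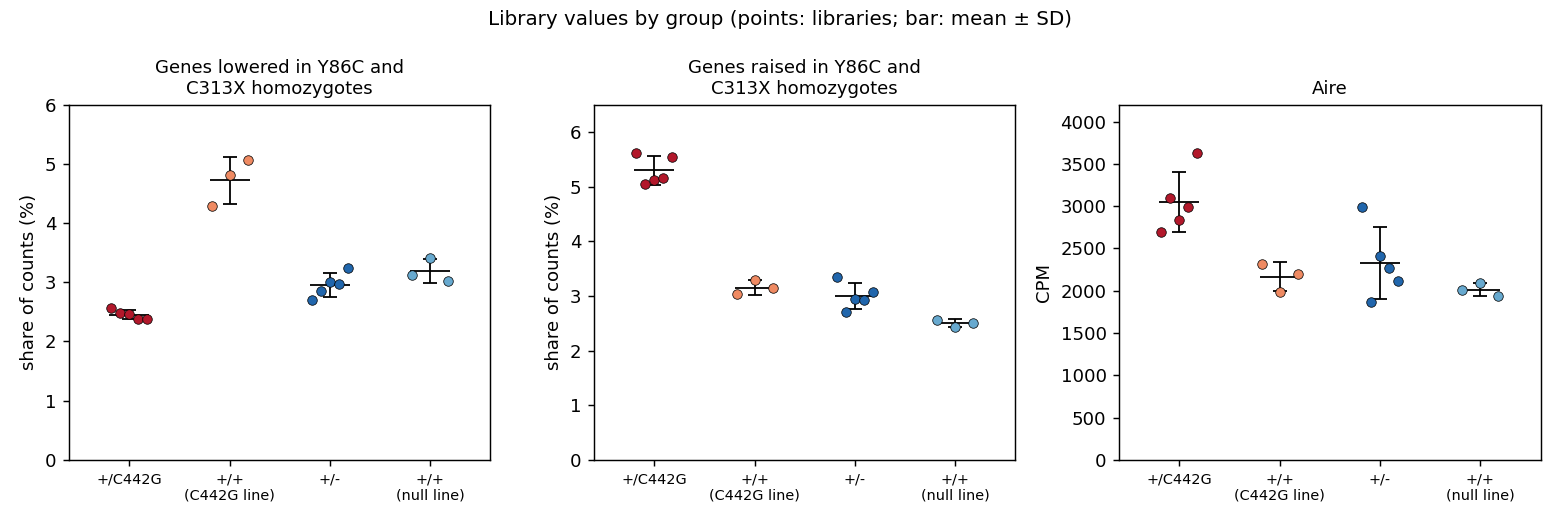
Share of counts (%) taken by the genes lowered and raised in Y86C and C313X homozygotes, and Aire in CPM, per library; bars give the mean ± SD of each group (n = 5, 3, 5 and 3). The +/C442G libraries are lowest in the lowered set (2.38% to 2.56%) and highest in the raised set (5.05% to 5.62%), and the C442G-line wild types are highest in the lowered set (4.29% to 5.06%).

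Aire itself (chromosome 10, 78030022 to 78043610 in GRCm38) was at 2691, 3097, 2839, 2984 and 3632 CPM in +/C442G libraries, against 2321, 1985 and 2197 CPM in their wild types, and at 2991, 1861, 2406, 2270.0 and 2109 CPM in Aire +/- libraries, against 2011, 2086 and 1939 CPM in theirs. Each +/C442G library exceeded each C442G-line wild type, whereas Aire +/- libraries overlapped their wild types. The C442G effect was 0.49 ± 0.13 (adjusted p = 0.00492) on the log2 scale (± gives the standard error throughout), and edgeR gave 0.21 ± 0.13 (adjusted p = 0.8) for the null effect. The difference, 0.28 ± 0.18 (adjusted p = 0.415), did not pass. A 3' tag outside a deleted part of the gene says nothing about the null allele.

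The start of Dnmt3l, a catalytically inactive partner of DNA methyltransferases in the germ line, lies within the span of Aire on the opposite strand. Its promoter is shown because the null effect passed most firmly there (RefSeq, GRCm38.p6, chr10:78042037-78042336, plus strand, 250 bases before to 50 bases after the start). Capitals mark CpG pairs, of which there are 6, against a median of 7 over 27025 promoters of the same length.
Dnmt3l: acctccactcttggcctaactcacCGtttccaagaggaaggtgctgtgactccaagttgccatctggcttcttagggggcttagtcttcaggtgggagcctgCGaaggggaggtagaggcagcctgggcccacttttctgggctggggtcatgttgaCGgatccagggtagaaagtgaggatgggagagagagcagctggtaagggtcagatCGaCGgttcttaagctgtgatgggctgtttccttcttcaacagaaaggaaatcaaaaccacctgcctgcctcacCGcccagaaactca

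Dnmt3l was at 68.2, 55.9, 60.9, 74.9 and 67.7 CPM in +/C442G, against 50.6, 57.2 and 48.9 CPM in C442G-line wild type, and at 104, 57.9, 91.9, 80.9 and 99.5 CPM in Aire +/-, against 46.2, 32.6 and 34.8 CPM in null-line wild type. Each Aire +/- library lay above its wild types, while the C442G groups overlapped. The null effect was 1.19 ± 0.16 (adjusted p = 0.000413), the only one of 14 named null effects that was called in each alternative run. The C442G effect was 0.32 ± 0.16 (adjusted p = 0.129), and the difference -0.87 ± 0.22 (adjusted p = 0.0176) was called, but not without Aire_C442G_wt_88, Aire_wt_432 or Aire_wt_434, nor in a fit of all 4 C57BL/6 count tables. Whether counting used the strand is not given in the sources used here, so that reads of Aire and Dnmt3l where the genes overlap cannot be told apart. That overlap lies at the 5' ends of both genes, and its part in these counts was not tested. Icosl, the next gene and the ligand of the costimulator ICOS, had a difference of 0.26 ± 0.18 (adjusted p = 0.466). Within 5 Mb of Aire, 6 of 157 tested genes were called in the difference (3.82%, against 6.29% of all tested genes).

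Among the genes below were organ antigens whose +/C442G level stood apart from every other group. Crabp1, a binding protein of retinoic acid, was at 20.9, 12.7, 23.7, 17.3 and 29.1 CPM in +/C442G, against 133, 110.3 and 132 CPM in C442G-line wild type, and at 58.7, 52.5, 50.6, 58.4 and 49.97 CPM in Aire +/-, against 94.9, 95.5 and 86.2 CPM in null-line wild type. Both heterozygous groups lay below their wild types, and each +/C442G library also lay below each Aire +/- library. The C442G effect was -2.57 ± 0.15 (adjusted p = 4.13e-13) and the null effect -0.77 ± 0.15 (adjusted p = 0.0241), and their difference -1.80 ± 0.22 (adjusted p = 7.93e-06) was called without any 1 of the 16 libraries and in 7 other alternatives. The null effect was not called without Aire_het_437, Aire_het_439 or Aire_het_440, nor without any of the 3 null-line wild types, nor in the fit of all 4 tables. The promoter of this gene, the only one called lower in both effects and in the difference among the named genes, is printed with its 17 CpG pairs in capitals (RefSeq, GRCm38.p6, chr9:54764498-54764797, plus strand).
Crabp1: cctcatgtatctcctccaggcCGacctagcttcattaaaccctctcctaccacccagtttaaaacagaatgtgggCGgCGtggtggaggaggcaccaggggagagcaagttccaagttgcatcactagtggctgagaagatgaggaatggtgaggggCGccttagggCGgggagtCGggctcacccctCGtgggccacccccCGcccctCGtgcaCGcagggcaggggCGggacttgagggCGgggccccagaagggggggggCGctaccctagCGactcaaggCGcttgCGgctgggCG

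The window holds no TATAAA, searched on both strands, which 14.2% of all promoters hold. The gut genes Nts, which encodes the peptide neurotensin, and Reg4, a secreted lectin of the gut, followed the same order in +/C442G but not in Aire +/-. Nts was at 35.6, 26.3, 27.5, 20.1 and 23 CPM in +/C442G, against 166, 183 and 244 CPM in C442G-line wild type, and at 97.5, 39.7, 79.9, 84.2 and 87.6 CPM in Aire +/-, against 74.3, 101 and 89.1 CPM in null-line wild type, with a difference of -2.77 ± 0.31 (adjusted p = 4.47e-05). Reg4 was at 14.1, 7.52, 13.1, 12.9 and 13.2 CPM in +/C442G, against 70.3, 53.6 and 47.8 CPM in C442G-line wild type, and at 28.1, 36.4, 35.8, 43.7 and 40.3 CPM in Aire +/-, against 39.4, 45.5 and 22.5 CPM in null-line wild type, with a difference of -2.25 ± 0.28 (adjusted p = 1.13e-05). For both, the +/C442G libraries lay below the other 11 libraries and the Aire +/- libraries overlapped their wild types, though the C442G-line wild types also lay above those of the null line. Cela3b, a pancreatic elastase, differed between the heterozygotes alone. It was at 9.74 to 17.2 CPM in +/C442G, against 28.2 to 37.9 CPM in C442G-line wild type, and at 18.2 to 38.8 CPM in Aire +/-, against 21.2 to 32.03 CPM in null-line wild type. Here the wild types of both lines overlapped, and the difference was -1.60 ± 0.32 (adjusted p = 0.00232).

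Retnlb, a resistin-like protein of the colon, had 2.44, 0.940, 4.65, 1.81 and 3.38 CPM in +/C442G, against 22.7, 20.8 and 37.3 CPM in C442G-line wild type, and 24.7, 12.1, 8.82, 15.6 and 14.7 CPM in Aire +/-, against 13.4, 18.5 and 7.35 CPM in null-line wild type. The +/C442G libraries again lay below the other 11, and the difference was -3.54 ± 0.49 (adjusted p = 8.61e-05). Haptoglobin (Hp), a liver plasma protein that binds free haemoglobin, was at 14.98 to 23.7 CPM in +/C442G, against 54.1 to 97.9 CPM in C442G-line wild type, and at 23.9 to 56.2 CPM in Aire +/-, against 29.9 to 47.96 CPM in null-line wild type, with a difference of -2.01 ± 0.39 (adjusted p = 0.00514).

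Another group of antigens entered the difference through the level of the C442G-line wild types. Ins2, the insulin gene, was at 39.96, 30.6, 44, 39.2 and 37.2 CPM in +/C442G, against 68.6, 107 and 114 CPM in C442G-line wild type, and at 31.5, 22.9, 39.01, 51.05 and 27.1 CPM in Aire +/-, against 27.1, 36.5 and 42.6 CPM in null-line wild type. The 2 heterozygous groups overlapped, at 30.6 to 44 and 22.9 to 51.05 CPM, and the C442G-line wild types lay above all other libraries. The C442G effect was -1.34 ± 0.19 (adjusted p = 1.34e-05), the null effect -0.0084 ± 0.22 (adjusted p = 0.997) and the difference -1.33 ± 0.29 (adjusted p = 0.00775), while edgeR called the wild types apart by 1.47 ± 0.23 (adjusted p = 0.000105) and did not call the heterozygotes apart (0.14 ± 0.19 (adjusted p = 0.597)).

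Sst, which encodes somatostatin, was at 61.9, 44.7, 65.99, 38.5 and 42.6 CPM in +/C442G, against 151, 129 and 171 CPM in C442G-line wild type, and at 45.1, 56.5, 56.6, 66.7 and 41.3 CPM in Aire +/-, against 34.9, 70.2 and 62.2 CPM in null-line wild type. Its difference of -1.53 ± 0.30 (adjusted p = 0.00477) stood beside -0.085 ± 0.19 (adjusted p = 0.766) between the heterozygotes. Avp (vasopressin), Tff3 (a trefoil peptide of mucus) and Krt10 (a keratin of the upper epidermis) shared this form. Their differences were -1.20 ± 0.23 (adjusted p = 0.0018), -1.41 ± 0.32 (adjusted p = 0.0174) and -1.28 ± 0.30 (adjusted p = 0.0191), and the direct contrasts of +/C442G with Aire +/- were -0.057 ± 0.15, -0.058 ± 0.20 and 0.036 ± 0.19, none of them called. The call for Tff3 ended without Aire_C442G_wt_89 or Aire_wt_430, and that for Krt10 without Aire_wt_430 or Aire_wt_434, and both ended in the fit of all 4 tables, as did that for Sst. In these 5 genes the 3 C442G-line wild types lay above all other libraries and the heterozygous groups overlapped.

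**Figure D3:**
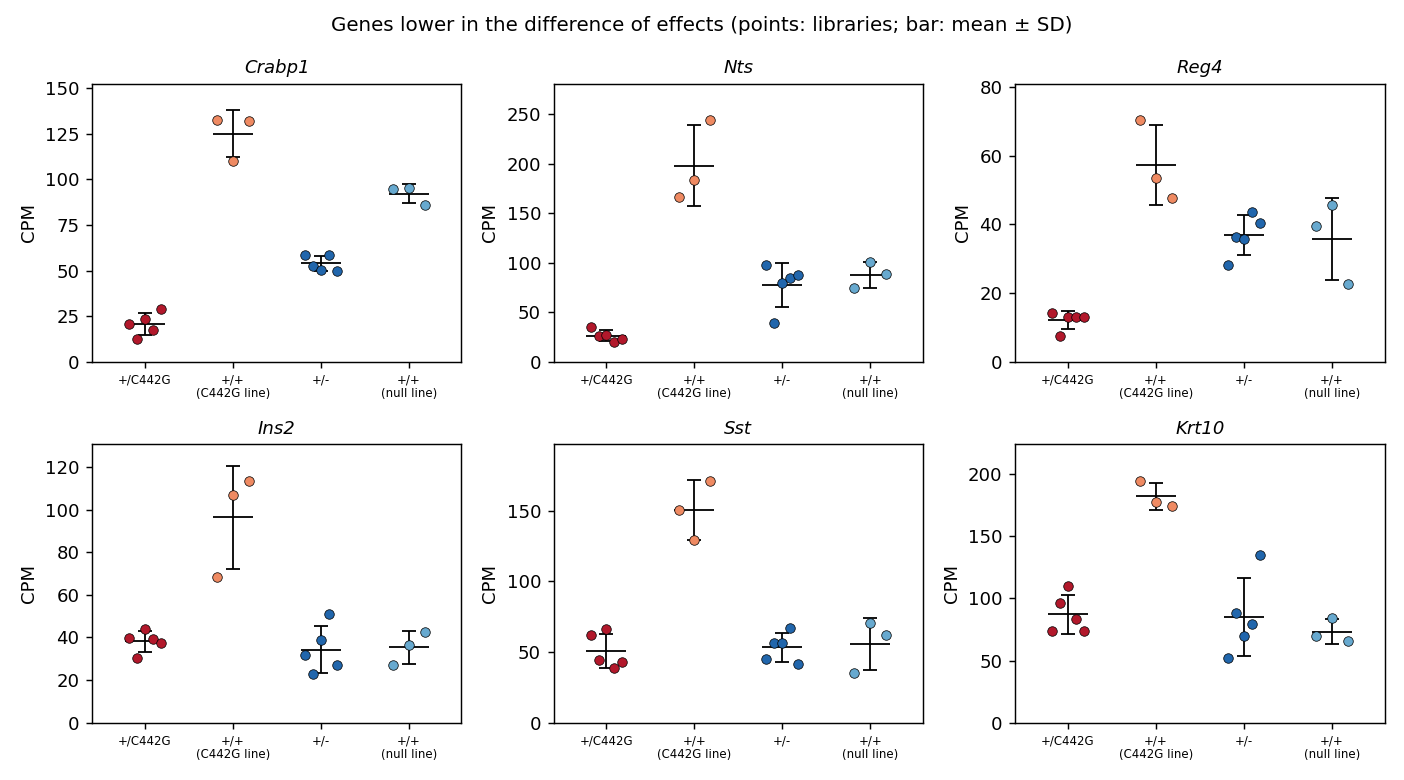
CPM per library of 6 genes whose C442G effect lay below the null effect; bars give the mean ± SD of each group (n = 5, 3, 5 and 3). In the upper row (Crabp1, Nts and Reg4) the +/C442G libraries lie below all others, and in the lower row (Ins2, Sst and Krt10) the C442G-line wild types lie above all others while the heterozygotes overlap.

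Of 42 genes on a list of known Aire-induced antigens, 36 were tested. In the difference 11 lay below (30.6%, against 3.9% of all tested genes), 1 lay above and 24 did not pass, with a median of -0.82 beside 0.0033 over all tested genes. In the C442G effect 23 fell (63.9%, against 13.5%) and 3 rose, with a median of -1.07, and in the null effect 1, Crabp1, fell, with a median of -0.02. Between the wild types 18 were higher and 1 was lower in the C442G line. The 1 member above was Csn2, a milk casein, while the caseins Csn1s1 and Csn1s2a lay below, and under library size alone 0 lay above. Of 19 tested pancreas genes 3 lay below (Ins2, Sst and Cela3b, 15.8%) and 12 fell in the C442G effect (63.2%). Of 27 tested gut genes 5 lay below (Nts, Reg4, Gip, Tff3 and the mucin gene Muc2, 18.5%), and 11 fell (40.7%) and 5 rose (18.5%, against 13% of all tested genes) in the C442G effect. Of 18 tested liver genes 2 lay below (Hp and the fibrinogen gene Fgb, 11.1%) and 1 above (F2, prothrombin, 5.56%). The antigen list shares Ins2, Sst, Tff3 and Fgb with these organ lists. F2 was at 25.8, 45.1, 26.6, 34.6 and 48.4 CPM in +/C442G, against 19.2, 20.3 and 25.1 CPM in C442G-line wild type, and at 12.1, 12.1, 13.5, 13.8 and 11.5 CPM in Aire +/-, against 18.5, 15.7 and 13.7 CPM in null-line wild type, and its difference of 1.12 ± 0.31 (adjusted p = 0.0247) ended without Aire_C442G_wt_88 or Aire_wt_430. Of 13 tested antigens linked to FEZF2, another regulator of self-antigens in mTEC, 1 (Krt10) lay below (7.69%, against 3.9% of all tested genes). In the C442G effect 6 rose (46.2%, against 13%) and 1 fell (7.69%, against 13.5%).

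Genes of cornified skin and of ciliated cells were among the genes below. Of the 10 genes with the largest differences on that side, 4 were late cornified envelope (Lce) genes, small proteins of the outer skin that lie together on chromosome 3, and 1, Mcidas, belongs to ciliated cells. Lce1i was at 1.46, 0.940, 0.846, 0.258 and 0.338 CPM in +/C442G, against 12.8, 15.3 and 6.99 CPM in C442G-line wild type, and at 5.82, 10.8, 0.929, 6.44 and 6.42 CPM in Aire +/-, against 6.51, 4.50 and 4.41 CPM in null-line wild type. Each +/C442G library lay below each C442G-line wild type, but 1 Aire +/- library overlapped them. The difference was -4.20 ± 0.69 (adjusted p = 0.000287), with a C442G effect of -4.04 ± 0.50 and a null effect of 0.16 ± 0.44. Lce1e, Lce3d and Lce1j had differences of -4.10 ± 0.997 (adjusted p = 0.0223), -3.53 ± 0.90 (adjusted p = 0.0271) and -3.50 ± 0.61 (adjusted p = 0.000931), of which the first was lost without Aire_C442G_wt_89 or Aire_wt_432 or Aire_wt_434, and the second without the same or Aire_wt_430. Of 16 tested Lce genes, a family looked at after its members had led the list, 10 lay below (against 3.9% of all tested genes). In the C442G effect 13 fell (against 13.5%), and 8 were higher in C442G-line than in null-line wild type (against 9.71%). Lce genes are close copies of each other, and how the counting split shared reads is not given in the sources used here, so their separate values are uncertain.

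Mcidas, a switch for multiciliated cells, was at 0.487, 1.41, 0.846, 0.516 and 0.338 CPM in +/C442G, against 8.14, 17.1 and 9.32 CPM in C442G-line wild type, and at 5.82, 2.02, 7.89, 1.84 and 2.75 CPM in Aire +/-, against 7.88, 4.50 and 4.41 CPM in null-line wild type. The +/C442G libraries lay below all other libraries, and the difference was -3.58 ± 0.68 (adjusted p = 0.0013). Zmynd10, which helps to assemble the dynein arms of cilia, had 0.940 to 3.41 CPM in +/C442G, against 19.8 to 30.1 CPM in C442G-line wild type, and 4.04 to 7.76 CPM in Aire +/-, against 3.93 to 12.7 CPM in null-line wild type. Its wild types did not overlap either, and the difference was -3.21 ± 0.49 (adjusted p = 0.000122). Dynlrb2, a dynein light chain, had a difference of -3.35 ± 0.86 (adjusted p = 0.0244), which ended without Aire_C442G_het_87, Aire_C442G_wt_88, or Aire_wt_432 or Aire_wt_434. Of 26 tested genes of motile cilia, a list also drawn up after these genes had been seen, 9 lay below (against 3.9% of all tested genes). Their median difference was -1.19. In the C442G effect 18 fell and 1 rose (against 13.5% and 13% of all tested genes). Between the wild types 11 of them were higher in the C442G line (against 9.71%).

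Foxi1, a transcription factor of ionocytes, was at 1.95, 2.35, 2.12, 1.03 and 2.71 CPM in +/C442G, against 15.1, 15.3 and 12.8 CPM in C442G-line wild type, and at 4.85, 7.40, 5.57, 13.3 and 5.50 CPM in Aire +/-, against 9.93, 7.30 and 6.86 CPM in null-line wild type. The +/C442G libraries lay below the other 11 and the difference was -2.70 ± 0.48 (adjusted p = 0.000697). Insm1, a factor of neuroendocrine cells, lay above by 0.92 ± 0.17 (adjusted p = 0.000888), at 284 to 376 CPM in +/C442G, against 167 to 208 CPM in C442G-line wild type, and at 199.9 to 282 CPM in Aire +/-, against 244 to 283 CPM in null-line wild type. The C442G-line wild types were the lowest of the 4 groups here, below each null-line wild type. In the difference by edgeR these were the called members among 20 tested factors of mimetic cells, the mTEC subsets that resemble cells of other organs, and with RLE factors or library size alone 2 lay below and 1 above. Of the same 20, 5 fell in the C442G effect (25%, against 13.5% of all tested genes) and 2 rose (10%, against 13%).

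Inhba, which encodes a subunit of activin, was at 0 to 1.35 CPM in +/C442G, against 7.56 to 13.98 CPM in C442G-line wild type, and at 2.75 to 5.34 CPM in Aire +/-, against 3.43 to 4.50 CPM in null-line wild type, with a difference of -3.65 ± 0.64 (adjusted p = 0.000697). Best2, a chloride channel, held 0.487 to 3.29 CPM in +/C442G, against 10.8 to 17.5 CPM in C442G-line wild type, and 0.673 to 4.85 CPM in Aire +/-, against 1.47 to 2.25 CPM in null-line wild type. Its heterozygotes overlapped, and its wild types stood apart by 2.85 ± 0.48 (adjusted p = 0.000104), beside a difference of -3.52 ± 0.65 (adjusted p = 0.00102). Pcp2, a Purkinje cell protein, and Sult1c1, a sulfotransferase, completed the 10, with differences of -3.55 ± 0.62 (adjusted p = 0.00169) and -4.04 ± 0.94 (adjusted p = 0.00838), and the Sult1c1 groups overlapped in each comparison.

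Of 18 tested keratinocyte-like markers 5 lay below (27.8%, against 3.9% of all tested genes): Sprr1a, Krt77, Krtdap, Krt10 and Krt1. Krtdap, a secreted protein of differentiating skin, was at 210.4 to 322 CPM in +/C442G, against 344 to 451 CPM in C442G-line wild type, and at 155 to 281 CPM in Aire +/-, against 133 to 155 CPM in null-line wild type, with a difference of -1.15 ± 0.26 (adjusted p = 0.0132), lost with homozygotes in the fit and in the fit of all 4 tables. The +/C442G libraries lay below their wild types and the Aire +/- libraries lay above theirs, and 13 of the 18 markers were higher in C442G-line than in null-line wild type. Among 22 tested tuft cell markers Ptgs1, a prostaglandin synthase, lay below by -1.10 ± 0.25 (adjusted p = 0.00583). The median tuft difference of -1.05 combined a median C442G effect of -0.42 with a median null effect of 0.59. The summed tuft markers ran from 503 to 859 CPM in +/C442G, 748 to 1029 in C442G-line wild type, 530 to 1294 in Aire +/- and 488 to 670 in null-line wild type, and the highest Aire +/- library held more than any wild-type library.

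Among the genes above, Ctla4 had the largest difference. Its protein is an inhibitory receptor of T cells that binds CD80 and CD86. It was at 57.98, 47.01, 36.4, 34.1 and 56.8 CPM in +/C442G, against 4.07, 7.12 and 6.99 CPM in C442G-line wild type, and at 8.73, 4.71, 4.64, 3.68 and 8.25 CPM in Aire +/-, against 7.54, 5.06 and 3.92 CPM in null-line wild type. The 5 +/C442G libraries lay far above the other 11, which overlapped each other. In the C442G effect it changed by 2.87 ± 0.27 (adjusted p = 2.63e-09), with a null effect of 0.083 ± 0.35 (adjusted p = 0.993) and a difference of 2.79 ± 0.46 (adjusted p = 0.000287), called in each of the alternatives run. Which cells the Ctla4 transcripts came from was not tested. Lck, a kinase of the T cell receptor from the list of thymocyte markers, was lower in +/C442G. It was at 7.78 to 11.3 CPM in +/C442G, against 21.1 to 30.3 CPM in C442G-line wild type, and at 14.3 to 22.3 CPM in Aire +/-, against 15.8 to 20.8 CPM in null-line wild type, with a difference of -1.44 ± 0.29 (adjusted p = 0.00247). The promoter of Ctla4 is printed as that of the gene leading this side, with its 8 CpG pairs in capitals (RefSeq, GRCm38.p6, chr1:60908775-60909074, plus strand).
Ctla4: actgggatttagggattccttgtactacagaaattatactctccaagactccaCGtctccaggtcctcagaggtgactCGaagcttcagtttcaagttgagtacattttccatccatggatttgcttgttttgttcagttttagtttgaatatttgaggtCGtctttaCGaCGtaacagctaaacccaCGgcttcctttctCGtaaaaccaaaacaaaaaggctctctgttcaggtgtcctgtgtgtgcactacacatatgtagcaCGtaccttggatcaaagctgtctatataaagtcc

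Unlike the Crabp1 and Dnmt3l windows it holds TATAAA or its reverse complement. Erv3, an endogenous retroviral gene also among the 10 largest differences on this side, had 34.1, 35.7, 30.5, 32.5 and 34.2 CPM in +/C442G, against 6.98, 10.6 and 4.08 CPM in C442G-line wild type, and 7.28, 3.37, 7.43, 12.4 and 11.5 CPM in Aire +/-, against 5.48, 10.7 and 3.92 CPM in null-line wild type. The difference was 1.66 ± 0.45 (adjusted p = 0.0232), and it ended without Aire_C442G_wt_89 or Aire_wt_432. Grpr, a receptor of gastrin-releasing peptide, was at 13.5 to 21.9 CPM in +/C442G, against 5.80 to 7.57 CPM in C442G-line wild type, and at 2.02 to 7.79 CPM in Aire +/-, against 4.80 to 7.35 CPM in null-line wild type, with a difference of 1.77 ± 0.44 (adjusted p = 0.0124). In both genes all +/C442G libraries lay above all others. Dennd2c and Cacna2d1, a subunit of calcium channels, had the same form, with differences of 1.68 ± 0.46 (adjusted p = 0.0253) and 1.76 ± 0.47 (adjusted p = 0.0224). The first of these was lost without Aire_C442G_wt_86 or Aire_C442G_wt_89 or Aire_wt_432 or Aire_wt_434, and the second without Aire_C442G_wt_89 or Aire_wt_430. Lnpep, an aminopeptidase, differed through both effects, which pointed apart: it was at 4.13 to 8.04 CPM in +/C442G, against 1.74 to 3.96 CPM in C442G-line wild type, and at 1.38 to 3.88 CPM in Aire +/-, against 4.11 to 6.37 CPM in null-line wild type. Its difference was 2.06 ± 0.57 (adjusted p = 0.0262), but neither effect passed by itself, and the call ended without Aire_C442G_wt_86, Aire_het_439, or Aire_wt_432 or Aire_wt_434. Kbtbd13, Eml5, Zfp641 and Arhgap30, the other genes of the leading 10, stayed under 35 CPM and were each lost without at least 2 single libraries, the first 2 also under library size alone.

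Some genes above were already higher in Aire +/-, by a smaller effect than in +/C442G. Skint9, a member of a family of epithelial immunoglobulin-like proteins, was at 667, 606, 542, 661 and 588 CPM in +/C442G, against 226, 273 and 189 CPM in C442G-line wild type, and at 187, 209, 173.7, 186 and 260.4 CPM in Aire +/-, against 145, 107 and 124 CPM in null-line wild type. Both heterozygous groups lay above their wild types. The C442G-line wild types also lay above those of the null line, and edgeR called them apart by 0.87 ± 0.15 (adjusted p = 0.000171). The C442G effect was 1.41 ± 0.14 (adjusted p = 5.35e-09), the null effect 0.69 ± 0.14 (adjusted p = 0.0328) and the difference 0.72 ± 0.19 (adjusted p = 0.0187), which did not pass under library size alone, in the fit of all 4 tables, or without Aire_C442G_wt_89 or Aire_wt_430. Prkca, a protein kinase C, and Ralgapa2, a GTPase-activating subunit, had C442G effects of 1.59 ± 0.14 (adjusted p = 1.73e-09) and 1.29 ± 0.12 (adjusted p = 4.39e-09), null effects of 0.75 ± 0.16 (adjusted p = 0.0426) and 0.60 ± 0.12 (adjusted p = 0.0328), and differences of 0.84 ± 0.21 (adjusted p = 0.0163) and 0.69 ± 0.17 (adjusted p = 0.0126). Leaving out Aire_wt_430 ended the call for Prkca.

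Among markers of mature mTEC, 3 of 24 tested lay above (12.5%, against 2.39% of all tested genes) and 14 rose in the C442G effect (58.3%, against 13%), with median changes of 0.26 and 0.45. Il1rn, the interleukin 1 receptor antagonist, was at 558, 404, 560.1, 461 and 489.8 CPM in +/C442G, against 215, 213 and 240.0 CPM in C442G-line wild type, and at 197, 219, 213, 203 and 230.1 CPM in Aire +/-, against 152, 148 and 153 CPM in null-line wild type. Each heterozygous group lay above its wild types, and the difference was 0.66 ± 0.16 (adjusted p = 0.00944). Cd80, a costimulator and a ligand of CTLA4, and Tnfrsf11b, the decoy receptor of RANKL, were the others, with differences of 0.87 ± 0.25 (adjusted p = 0.0289) and 0.72 ± 0.19 (adjusted p = 0.0209). Cd80 was at 63.6 to 113 CPM in +/C442G, against 39.6 to 45.4 CPM in C442G-line wild type, and at 28.97 to 42.7 CPM in Aire +/-, against 29.8 to 41.1 CPM in null-line wild type. Of 20 tested genes of RANK and NF-kB signalling, through which mTEC mature, 4 lay above (20%, against 2.39% of all tested genes): Traf6 and Map3k14, which relay the signal, Birc3, and Tnfrsf11b. Their differences were 0.83 ± 0.22, 0.56 ± 0.16, 0.54 ± 0.15 and 0.72 ± 0.19, and 9 of the list rose in the C442G effect (45%, against 13%). All 4, and Cd80, were lost under library size alone, and each also without at least 2 single libraries. In the mature mTEC list 1 gene lay above under library size alone, with a median of 0.15.

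**Figure D4:**
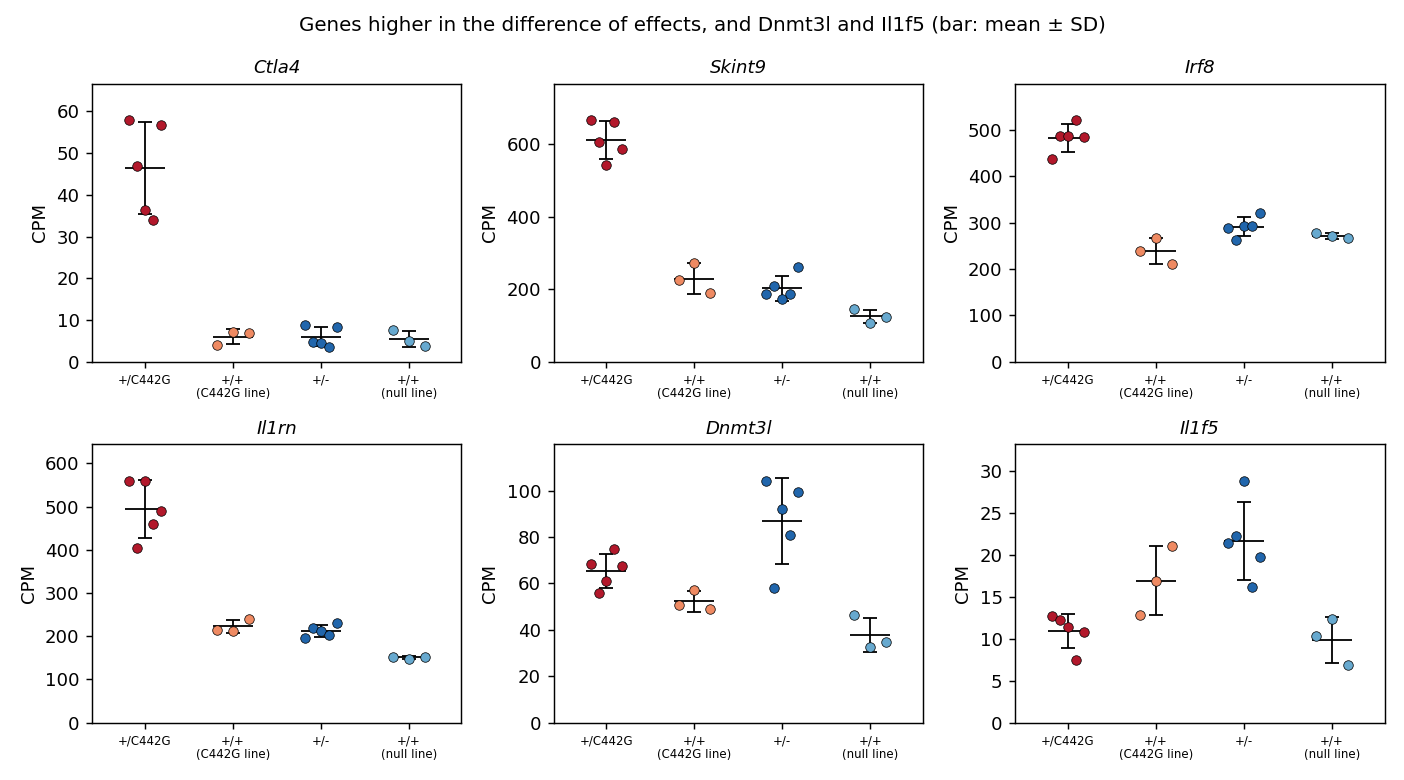
CPM per library of 4 genes whose C442G effect lay above the null effect (Ctla4, Skint9, Irf8 and Il1rn) and of Dnmt3l and Il1f5, whose null effect lay above; bars give the mean ± SD of each group (n = 5, 3, 5 and 3). In the first 4 genes the +/C442G libraries lie above all others, in Dnmt3l and Il1f5 most Aire +/- libraries are the highest.

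Interferon-stimulated genes made up a group below whose wild types did not run ahead in the C442G line. Of 23 tested, 8 lay below (Gbp3, Isg15, Rsad2, Gbp2, Mx2, Ifit2, Ifit3 and Irf7) and 1, Ifit1, lay above, with a median of -0.71. The share below was 34.8%, against 3.9% of all tested genes. In the C442G effect 12 fell (52.2%, against 13.5%) and 2 rose. Under library size alone 9 lay below and 0 above. Gbp3, an interferon-induced GTPase, was at 18.03, 16.9, 15.7, 14.5 and 14.9 CPM in +/C442G, against 39.5, 35.9 and 37.9 CPM in C442G-line wild type, and at 53.4, 55.9, 59.9, 60.2 and 48.6 CPM in Aire +/-, against 65.1, 55.6 and 51.4 CPM in null-line wild type. The +/C442G libraries lay below all others, and the C442G-line wild types lay below those of the null line. The difference was -1.19 ± 0.20 (adjusted p = 0.000317). Isg15, a ubiquitin-like protein, was at 75.04, 109, 132, 86.5 and 83.9 CPM in +/C442G, against 209, 175 and 207 CPM in C442G-line wild type, and at 141, 266, 164, 201 and 194 CPM in Aire +/-, against 178, 186 and 182 CPM in null-line wild type, with a difference of -1.10 ± 0.24 (adjusted p = 0.00939). Its wild types overlapped. Rsad2, an antiviral enzyme, had a difference of -1.69 ± 0.43 (adjusted p = 0.0187), which ended without Aire_C442G_wt_89 or Aire_wt_430. Between the wild types 1 of the 23 genes was higher and 4 were lower in the C442G line. The summed list ran from 1723 to 1972 CPM in +/C442G, 2186 to 2310 in C442G-line wild type, 1996 to 2861 in Aire +/- and 2459 to 2491 in null-line wild type.

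Of the 17 genes called in the null effect, 16 were also called in the C442G effect (94.1%, against 26.5% of all tested genes), 15 of them in the same direction. Of the 17, 10 had the larger absolute change in +/C442G. Most showed no called difference. Btbd17 was at 0.975, 1.41, 1.69, 3.62 and 3.72 CPM in +/C442G, against 10.5, 10.03 and 6.41 CPM in C442G-line wild type, and at 3.88, 4.04, 1.86, 3.22 and 0.917 CPM in Aire +/-, against 9.25, 12.9 and 13.7 CPM in null-line wild type. The heterozygous groups overlapped and both lay below their wild types, with effects of -1.86 ± 0.38 (adjusted p = 0.000419) and -2.10 ± 0.38 (adjusted p = 0.023) and a difference of 0.25 ± 0.56 (adjusted p = 0.871). Fabp3, a fatty acid carrier of heart muscle, had effects of -1.10 ± 0.23 (adjusted p = 0.000831) and -1.44 ± 0.27 (adjusted p = 0.0241) and a difference of 0.34 ± 0.36 (adjusted p = 0.671). Among those raised in both, Marc1 was at 339 to 507 CPM in +/C442G, against 208 to 254 CPM in C442G-line wild type, and at 169 to 220.2 CPM in Aire +/-, against 106 to 130.4 CPM in null-line wild type, with a difference of 0.20 ± 0.18 (adjusted p = 0.583). Cacna1s, a calcium channel of skeletal muscle, and Myh4, a fast muscle myosin, had differences of 0.24 ± 0.19 (adjusted p = 0.542) and 0.042 ± 0.21 (adjusted p = 0.951). A difference that did not pass does not show equal effects: the median standard error of the difference over all tested genes was 0.30. Apart from Dnmt3l, each of the 14 named null effects was lost without some single library, and leaving out Aire_het_439 or Aire_het_440 or Aire_wt_432 or Aire_wt_434 left 1 call.

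Il1f5, an antagonist of the interleukin 36 receptor, was the gene called in both effects in opposite directions. It was at 12.7, 12.2, 11.4, 7.49 and 10.8 CPM in +/C442G, against 12.8, 16.9 and 20.97 CPM in C442G-line wild type, and at 21.3, 22.2, 28.8, 16.1 and 19.7 CPM in Aire +/-, against 10.3, 12.4 and 6.86 CPM in null-line wild type. Its C442G effect was -0.66 ± 0.23 (adjusted p = 0.0357), its null effect 1.14 ± 0.25 (adjusted p = 0.0494) and the difference -1.80 ± 0.34 (adjusted p = 0.0013). The difference passed in each alternative run, whereas the C442G effect was lost without 4 single libraries and the null effect without 11. The 2 low groups, +/C442G and null-line wild type, overlapped.

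Markers of other cells also changed. Of 17 tested macrophage and dendritic cell markers 2 lay above (11.8%, against 2.39% of all tested genes), Irf8, a transcription factor, and Fcer1g, a receptor subunit. Irf8 was at 436.6, 486, 487, 521 and 484 CPM in +/C442G, against 238, 267 and 210.3 CPM in C442G-line wild type, and at 289, 263, 292, 292 and 321 CPM in Aire +/-, against 278, 271 and 266 CPM in null-line wild type. All 5 +/C442G libraries lay above the other 11, and the difference was 0.91 ± 0.15 (adjusted p = 0.000245). Fcer1g differed by 0.91 ± 0.20 (adjusted p = 0.00564). In the C442G effect 6 of these markers rose (35.3%, against 13% of all tested genes) and 4 fell (23.5%, against 13.5%), among them Itgam by -1.33 ± 0.27 (adjusted p = 0.000441), and their sum ran from 1740 to 2297 CPM in +/C442G, 1350 to 1710 in C442G-line wild type, 1310 to 1740 in Aire +/- and 1437 to 1689 in null-line wild type. Their part in the result was not tested. Of 8 tested fibroblast and endothelial markers Dcn, a proteoglycan, lay above by 1.26 ± 0.23 (adjusted p = 0.0013), except in the fit of all 4 tables, at 200.5 to 329 CPM in +/C442G, against 62.2 to 86.8 CPM in C442G-line wild type, and at 61.8 to 79.8 CPM in Aire +/-, against 45.5 to 63.4 CPM in null-line wild type, while the collagen gene Col1a1 fell in the C442G effect by -1.49 ± 0.29 (adjusted p = 0.000744). Of 5 tested B cell markers Blnk, an adaptor, lay above by 0.58 ± 0.16 (adjusted p = 0.0246), except under library size alone and without 4 single libraries, and Cd22 fell in the C442G effect by -2.02 ± 0.46 (adjusted p = 0.00122). Of 13 tested thymocyte markers Lck lay below (7.69%, against 3.9% of all tested genes). In the C442G effect 6 fell (46.2%, against 13.5%) and 0 rose, all 13 estimates lay below 0 with a median of -0.74, and the summed markers did not overlap between +/C442G and its wild types. In the null effect 0 were called by edgeR, with a median of -0.18. The part of these cells in the results was not tested.

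In the difference the remaining lists held few or no calls. Of 13 tested cortical epithelial markers Cd83 lay above by 1.06 ± 0.26 (adjusted p = 0.0122) and Ctsl below by -0.90 ± 0.23 (adjusted p = 0.0219). Each made up 7.69% of the list, against 2.39% above and 3.9% below over all tested genes. Cd83 was lost without Aire_wt_434, and Ctsl without Aire_C442G_wt_86, Aire_wt_432 or Aire_wt_434, with homozygotes in the fit and in the fit of all 4 tables. Of 11 tested immature mTEC markers Itga6, an integrin, lay above by 0.64 ± 0.17 (adjusted p = 0.0209) (lost under library size alone and without Aire_C442G_wt_88), and Krt15 below by -1.30 ± 0.38 (adjusted p = 0.0498), a call lost without any 1 of 14 libraries. Each made up 9.09% of that list. In the C442G effect 1 of the 11 rose (9.09%, against 13% of all tested genes) and 4 fell (36.4%, against 13.5%). Of the 13 cortical markers 4 rose (30.8%) and 3 fell (23.1%) in that effect. Krt5, a keratin of immature mTEC, was at 192 to 340.5 CPM in +/C442G, against 328 to 783 CPM in C442G-line wild type, and at 712 to 1386 CPM in Aire +/-, against 979.5 to 1063 CPM in null-line wild type. It was lower in the C442G line in both genotypes, and its difference of -0.98 ± 0.40 (adjusted p = 0.19) did not pass. Of 28 tested AIRE partners 1 lay below (3.57%, against 3.9% of all tested genes), Xrcc5, a subunit of the DNA repair protein Ku, by -0.85 ± 0.24 (adjusted p = 0.0264), a call lost without 5 single libraries and in the fit of all 4 tables. No call by edgeR or DESeq2 was made among 19 proliferation genes (0 at an unadjusted p under 0.05), 21 immediate-early and heat shock genes (3 at an unadjusted p), 14 tight junction genes (2) and 2 erythroid genes (0). In the C442G effect 4 proliferation genes fell (21.1%, against 13.5% of all tested genes), among them Ccnb2, a cyclin, by -0.65 ± 0.18 (adjusted p = 0.00602), and 6 tight junction genes rose (42.9%, against 13%) and 1 fell. Under library size alone 8 proliferation genes fell, and 1 tight junction gene rose and 1 fell.

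**Figure D5:**
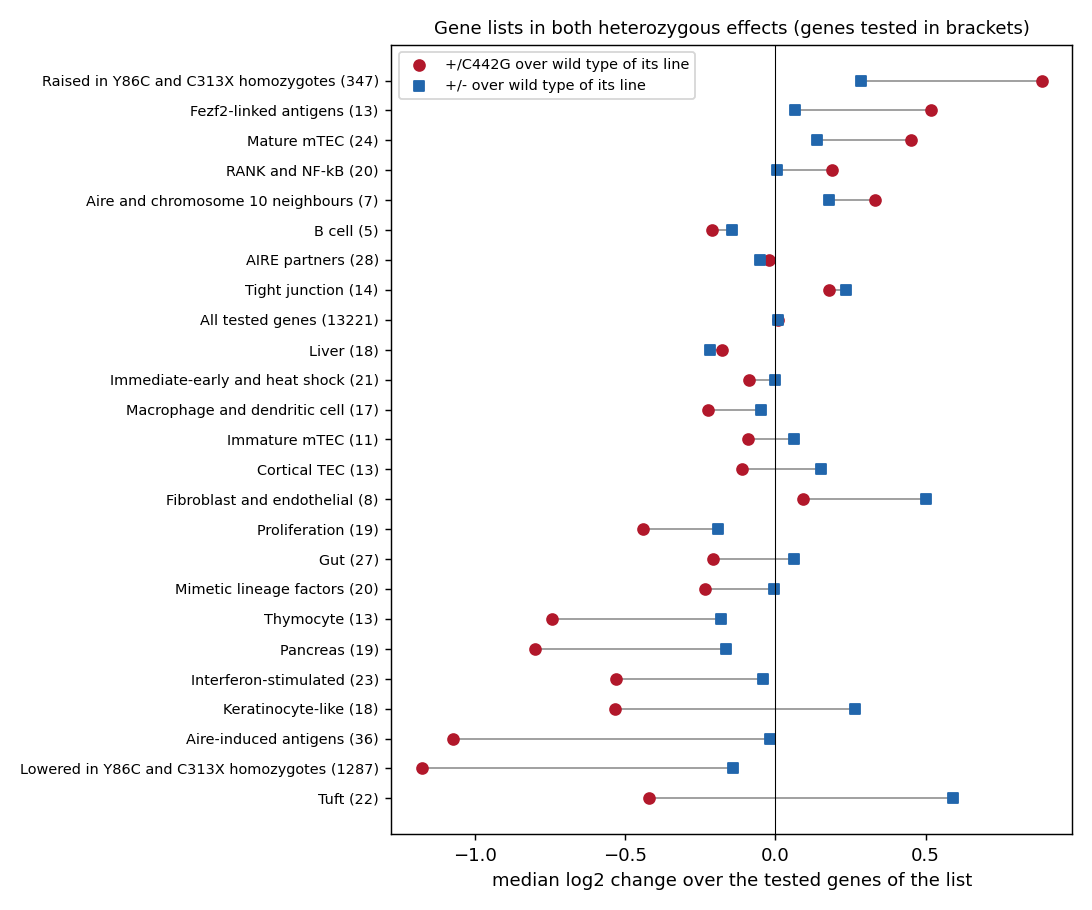
Median log2 change of the tested genes of each list in +/C442G over C442G-line wild type (circles) and in Aire +/- over null-line wild type (squares), ordered by the median difference. The medians of the Aire-dependent sets lie far apart (-1.17 against -0.14, and 0.89 against 0.29), and those of all tested genes coincide near 0.

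The number of genes detected per library was compared after each library was thinned to 1425139 counts. It was 15102, 15029, 14881, 14974 and 15097 in +/C442G, against 15285, 15426 and 15376 in C442G-line wild type, and 15286, 15163, 15293, 15250.0 and 15249 in Aire +/-, against 15326, 15293 and 15328 in null-line wild type. Each +/C442G library held fewer genes than any other library, and the highest Aire +/- library equalled the lowest of its wild types. The mean difference was -346 genes in the C442G line (p = 0.0179, exact permutation test, two-sided, the smallest the design allows) and -67.5 genes in the null line (p = 0.0536, same test). With at least 3 counts per gene the mean differences were -878 genes (p = 0.0179, same exact test) and -178 genes (p = 0.0357, same exact test). The C442G-line difference minus that of the null line was -278 genes, or -699 genes with at least 3 counts, and equality of these differences was not tested.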

How the data were processed

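Per the labels' protocols, thymi were digested with enzymes, and MARS-seq libraries were made from RNA of the sorted cells. Per the submitters' processing notes, the tools were STAR 2.4.2a for build mm10, with bcl2fastq, cutadapt, HTSeq and DESeq2. The annotation, strand setting and treatment of molecular identifiers are not given in the sources used here. The authors deposited raw counts per gene and library, and each table holds only genes whose highest count reached 6. Their other columns were not used. The library titled wild type with the genotype label -/- (1 column) was left out.

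Counts of genes in both tables were tested with the quasi-likelihood test of edgeR 4.0.16 (R 4.3.3, TMM factors, robust dispersion, filterByExpr) in 1 fit of 4 groups. Calls had an adjusted p under 0.05, by Benjamini-Hochberg over 13221 genes. The sets lowered and raised in Y86C and C313X homozygotes came from the deposited counts of those lines by the same test and a 2-fold limit. CPM were computed per library, with TMM factors for single genes and without them for summed lists. They are not per length, so that levels are compared within a gene only. DESeq2 1.42.0 was an alternative. The test of the difference was tried on simulated counts. At a simulated size of 1.5-fold it called 7.41% of the altered genes, at 2-fold 32.1%, and at 4-fold 85.7%. False calls numbered 5.

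Named genes were Aire, up to 10 each way with the largest called difference, 1 group averaging 5 CPM or more, up to 8 each way per effect, up to 8 called in both effects, and up to 4 with the smallest p of each of the lists holding a call, passing over symbols of the Gm and Rik kind except in the genes called in both effects. Other genes named were chosen after their values were seen. A withheld item is not reported here. Members and lists were chosen with earlier results of these data known. Coordinates (GRCm38) and promoters are from RefSeq.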

Additional observations from a re-analysis of the deposited data

Results flagged for a closer look

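Single libraries stood apart from the rest of their group in 13 of 264 tested groups of 5 (4.92%), where chance gives about 1 in 20. In +/C442G these were Pcp2 in Aire_C442G_het_81 (6.33 CPM, the others 0.470 to 1.55), Dynlrb2 in Aire_C442G_het_81 (3.90 CPM), Panct2 in Aire_C442G_het_82 (11.3 CPM), Reg4 in Aire_C442G_het_82 (7.52 CPM), Marc1 in Aire_C442G_het_85 (339 CPM), Ttr in Aire_C442G_het_85 (508.5 CPM, the others 231.5 to 290), Cela3b in Aire_C442G_het_91 (17.2 CPM) and Cd3d in Aire_C442G_het_87 (4.39 CPM). In Aire +/- they were Pnliprp1 in Aire_het_437 (3.71 CPM), Cgn in Aire_het_437 (37.1 CPM), Map3k14 in Aire_het_439 (105 CPM), Krt15 in Aire_het_435 (23.6 CPM, the others 55.7 to 67.4) and the total count of Aire_het_435 (1425904).

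The effects of the 2 alleles differed, by the test of the difference itself, in 831 genes. Among the genes called in both effects, the log2 difference was -1.80 for Crabp1, -1.80 for Il1f5, 0.84 for Prkca, 0.69 for Ralgapa2 and 0.72 for Skint9.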

How the results depend on the processing

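The count of 831 differences was 836 to 1078 with DESeq2, RLE factors, library size alone, no filter, a sex term, homozygotes in the fit or all 4 tables, 480 to 959 without 1 library, and 502 when genes with wild types called apart were dropped (chosen after seeing the data, as was library size alone). Genes also called between the heterozygotes numbered 610. The C442G count was 2768 to 3557 without 1 library. The null count of 17 moved to 46 with DESeq2, 35 with homozygotes in the fit, 8 with a sex term, 7 with library size alone, and 1 to 25 without 1 library (9 without Aire_het_437, 4 without Aire_wt_430). The wild types differed by 1434 (without Aire_wt_430) to 2359 genes. Library size alone split the C442G effect into 1026 higher and 2579 lower, with the median of all genes at -0.126. Aire changed by 0.21 to 0.39 (difference), 0.42 to 0.55 (C442G) and 0.10 to 0.28 (null) without 1 library. The share difference of -2.04 points was -2.60 with no fold limit, -2.87 for a set from Y86C alone, -1.92 without its 5 most abundant genes, and -2.25 to -1.86 without 1 library. The detected genes differed by -699.33 with at least 3 counts, by -299.57 without Aire_het_435, and by -317 to -244 without 1 library. Of 195 called results of named genes, 120 passed under each alternative run, and 0 of 4477 values changed sign. The causes of these shifts were not tested. No paired analysis was possible because the groups share no replicate numbers.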
